A study of Mus musculus with 14 samples.

Results

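The genes of the circadian clock and its output were followed in the back skin of C57BL/6 mice after ultraviolet (UV) irradiation. They are the 3 period genes Per1, Per2 and Per3, the nuclear receptor genes Nr1d1 and Nr1d2, the PAR-type leucine zipper genes Dbp and Tef, the related repressor gene Nfil3, and Arntl, and each was taken by its symbol from the expression table. All 9 were found among the 10980 genes listed, and no further filter on low values was applied. Few of the genes listed were weaker on average than Per2, which stood at the 0.929th percentile with a mean of 2.56 FPKM. Percentiles and shares of all genes below therefore refer to the genes listed and not to all genes of the mouse. The study took full-thickness skin, which contains epidermis, hair follicles, dermis and some underlying fat and muscle, and sequenced its RNA. Unirradiated skin (0 h) gave 2 libraries, and 2 came from skin 0.5 h after irradiation, 3 from 2 h, 3 from 6 h, 2 from 12 h and 2 from 24 h, 14 in all. Every mouse was wild type and had the fur of the back removed before irradiation with a mixed UV source. No source used here gives the sex, age, UV dose or clock time of irradiation and collection. No library was taken from unirradiated skin at a later time, so time after UV, time of day and handling cannot be told apart in any comparison below.

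The clock is a transcriptional feedback loop that runs in nearly every cell of the body, skin included. The protein made from Arntl, BMAL1, pairs with CLOCK and activates genes through E-boxes in their promoters, among them the period and cryptochrome genes, whose proteins then repress BMAL1 and CLOCK. In an adjoining loop the REV-ERB receptors made from Nr1d1 and Nr1d2 repress Arntl and Nfil3 through ROR elements, where the ROR receptors activate. DBP and TEF activate genes through D-boxes and NFIL3 represses the same sites. In skin the clock times cell division and DNA repair in the epidermis and takes part in the hair cycle. Per1 in particular also answers within hours to glucocorticoids and to cAMP signalling through CREB.

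The columns fell into 3 sets by the number of digits in the values and by the style of the column headers. Set 1 had 1 library at each of the 6 times, set 2 had 1 at 0, 2, 6, 12 and 24 h, and set 3 had 1 at 0.5, 2 and 6 h with no unirradiated library. The median residual SD of a gene was 0.335 on the log2 scale in a model of time alone and 0.155 with the set as a further term, and the summed FPKM (fragments per kilobase of transcript and per library size, a level scaled for gene length) was 617748 to 700429 for set 1, 441072 to 474898 for set 2 and 513837 to 558821 for set 3, so levels are best compared within a set. Reads could be recovered for sets 2 and 3 and amounted to 12327907 to 15550419 per library, while the depth of set 1 is unknown. Behind the members stood 58 to 322 reads for Per2, 78 to 445 for Dbp, 195 to 1195 for Nr1d2, 219 to 683 for Per3 and 266 to 393 for Arntl over the 8 libraries with recovered reads, and 527 or more for each of the others. Nothing in the labels says which animals the libraries came from, so the tests measure the spread between these libraries, which may be partly technical. No marker measured for keratinocytes, hair shaft, fibroblasts, muscle, fat, myeloid cells or endothelium was at 0 in all libraries of a time.

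Promoter sequence was available for 8 of the 9 members, as windows from 250 bases before to 50 bases after the RefSeq start site (GRCm38.p6), and not for Per2. Clock motifs were searched on both strands in the 11 windows of these members, since they are the letters through which the loop described above acts. The E-box CACGTG occurred in a window of Per1 and of Tef and in 12.0% of 8435 genes with a window. Its variant CACGTT occurred for Nr1d1, and in 6.27% of genes. The D-box TTATGNAA occurred for Per3, which had a pair of copies, and for Per1, and in 2.64% of genes. The ROR element, TAGGTCA or TGGGTCA, occurred for Nfil3 and Arntl and in 6.19% of genes. The CRE TGACGTCA, through which CREB acts, was in none of the members' windows and in 3.59% of genes. A match describes letters only, and no match says nothing of binding outside or inside the window. No 2 of these motifs overlapped in the members' windows. The upstream parts of 4 windows and the Arntl site are shown 5′ to 3′ on the gene's own strand, with the motif in capitals. Each holds a motif and belongs to a gene described next. The Nfil3 window (ROR element at -12) and the other Tef window (E-box at -127) also hold a motif and are not shown. The Per3 window (GRCm38 chr4:151044666-151044915, minus strand) lies in an intron of a Camta1 transcript, the Per1 window (chr11:69098699-69098948, plus strand) and the Tef window (chr15:81811164-81811413, plus strand) lie upstream of one start site and inside a longer transcript of the same gene, the Nr1d1 window (chr11:98775378-98775627, minus strand) overlaps no annotated feature, and the Arntl site (chr7:113207531-113207557, plus strand) lies just after the start site.
Per3: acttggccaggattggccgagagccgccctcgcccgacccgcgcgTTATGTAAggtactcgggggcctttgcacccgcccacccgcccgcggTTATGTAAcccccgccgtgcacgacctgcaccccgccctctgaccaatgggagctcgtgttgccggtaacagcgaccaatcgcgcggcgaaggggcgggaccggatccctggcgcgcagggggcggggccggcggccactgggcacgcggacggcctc
Per1: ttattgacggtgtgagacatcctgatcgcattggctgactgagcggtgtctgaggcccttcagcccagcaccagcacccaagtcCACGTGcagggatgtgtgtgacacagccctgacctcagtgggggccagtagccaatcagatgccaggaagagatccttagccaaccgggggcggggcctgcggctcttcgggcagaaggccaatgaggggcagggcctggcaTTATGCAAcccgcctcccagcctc
Tef: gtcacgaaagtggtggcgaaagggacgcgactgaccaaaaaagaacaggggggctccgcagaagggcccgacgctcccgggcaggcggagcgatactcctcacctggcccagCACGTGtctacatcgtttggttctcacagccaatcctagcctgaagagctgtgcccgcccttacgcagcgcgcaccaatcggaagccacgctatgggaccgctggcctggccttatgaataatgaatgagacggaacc
Nr1d1: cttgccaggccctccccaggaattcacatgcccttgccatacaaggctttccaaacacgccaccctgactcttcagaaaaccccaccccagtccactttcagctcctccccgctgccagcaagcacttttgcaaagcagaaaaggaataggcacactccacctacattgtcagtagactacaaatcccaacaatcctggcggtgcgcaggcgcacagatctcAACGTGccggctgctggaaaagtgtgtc
Arntl: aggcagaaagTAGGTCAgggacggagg
In Per3 both D-boxes have the same 8 letters and start at positions -205 and -158 from the start site. In Per1 the E-box is at -166 and the D-box at -24, and in the Tef window shown the E-box is at -138. In Nr1d1 the variant is at -28 and reads as its reverse complement. In Arntl the ROR element begins at position 30 after the start.

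Most of the members were lower after irradiation, with the most calls at 2 and 12 h, while Nfil3 was higher and Arntl and Per1 had no change past the test. Changes were estimated on log2(FPKM + 1) with limma, with time and library set as terms and p-values adjusted over all 10980 genes by the Benjamini-Hochberg method, and "rose" and "fell" are used for an adjusted p under 0.05. At 0.5 h against unirradiated skin 2 of 9 members fell, Per3 and Nr1d2, where 0.0911% of all genes did. At 2 h 5 of 9 fell, Per2, Per3, Dbp, Tef and Nr1d2, against 2.56% of all genes. At 6 h 1 fell, Per3, against 3.42%, and 1 rose, Nfil3, against 0.902%. At 12 h 5 fell, Per3, Dbp, Tef, Nr1d1 and Nr1d2, against 3.23%, and at 24 h 2 fell, Per3 and Nr1d2, against 1.87%. The median change of the members was -1.13, -1.003, -0.27, -0.86 and -0.79 at 0.5, 2, 6, 12 and 24 h, and that of all genes lay between -0.063 and 0.015. The 5 comparisons share the same unirradiated libraries and are not independent of each other. In an F test over all times 4 of 9 members passed, Per2, Per3, Tef and Nr1d2, against 4.92% of all genes. These calls rest on the set term and on few libraries: with the set left out of the model no member was called at any time, with 4, 6, 2, 6 and 3 members at an unadjusted p under 0.05, and 0 of all genes were called at any of the 5 times. Leaving out either unirradiated library left no call among the members at 0.5, 2, 6 and 24 h, and 1 or 2 at 12 h.

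Single irradiated libraries also moved these counts by over 1.5 times. At 0.5 h no member was called without either 0.5 h library, either 12 h library or the set 2 library at 6 h, and 4 were called without the set 1 library at 6 h. At 2 h the count dropped to 1 without the set 1 library at 2 h. At 6 h it was 0 without the set 2 library at 6 h. At 12 h it was 1 without either 12 h library. At 24 h it was 0 without the set 2 library at 24 h, 1 without either 0.5 h library, either 12 h library or the set 2 library at 6 h, and 4 without the 6 h library of either set 1 or set 3. The F test called 1 and 2 members without the unirradiated library of set 1 and of set 2, 2 without either 12 h library or the set 2 library at 6 h, and 7 without the set 3 library at 6 h. The 20 called changes of members kept their direction in all 280 fits that left out 1 library, and where this left a time with 1 library, that library was assumed to vary like the rest.

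**Figure D1:**
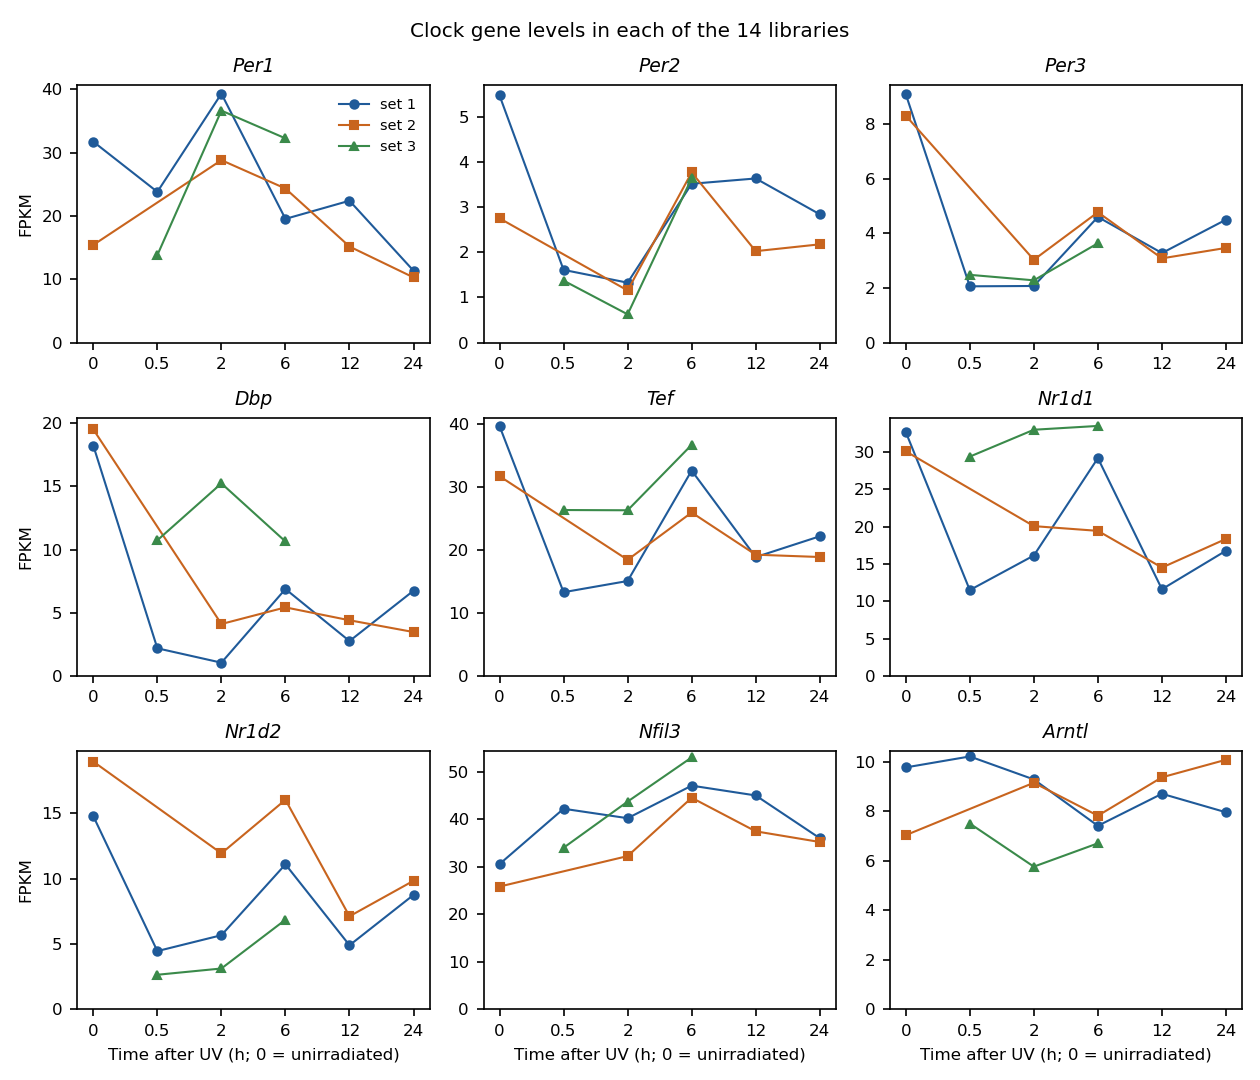
FPKM of the 9 clock genes by hours after UV (categories on the horizontal axis, FPKM on the vertical axis), with 1 point per library and 1 colour and line per library set. Per3 and Dbp lie below both 0 h points at every later time, Nfil3 lies above them, and Arntl has no such separation.

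Per3, a period gene whose protein is linked to sleep timing more than to keeping the loop running, fell at all 5 times (gene at GRCm38 chromosome 4, 151003652 to 151044665). In set 1 Per3 stood at 9.10 FPKM at 0 h and at 2.06, 2.07, 4.60, 3.28 and 4.50 FPKM at 0.5, 2, 6, 12 and 24 h. In set 2 Per3 stood at 8.31 FPKM at 0 h and at 3.03, 4.77, 3.09 and 3.47 FPKM at 2, 6, 12 and 24 h. In set 3 Per3 had 2.48, 2.28 and 3.64 FPKM at 0.5, 2 and 6 h. All 12 irradiated libraries were thus below both unirradiated ones, a pattern that 3.4% of all genes had, and 6 h was the highest irradiated time of each set. Per3 fell by 1.52 ± 0.20 (SE) on the log2 scale at 0.5 h (limma adjusted p = 0.0291), by 1.46 ± 0.17 at 2 h (adjusted p = 0.00829), by 0.84 ± 0.17 at 6 h (adjusted p = 0.0293), by 1.21 ± 0.18 at 12 h (adjusted p = 0.00712) and by 0.97 ± 0.18 at 24 h (adjusted p = 0.0236). Without the set term the changes were between -1.57 and -0.87, with the lowest adjusted p at 0.133. Per3 is a weakly expressed gene, with a mean FPKM at the 10.5th percentile of all genes, and values of this size are compressed by the pseudocount of 1.

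Per2, a core repressor of the loop that works with the cryptochromes, fell at 2 h and rose again from 2 to 6 h (gene at chromosome 1, 91415982 to 91459324). In set 1 Per2 had 5.47 FPKM at 0 h and 1.61, 1.33, 3.51, 3.63 and 2.84 FPKM at the later times. In set 2 Per2 had 2.75 FPKM at 0 h and 1.15, 3.76, 2.02 and 2.17 FPKM at 2, 6, 12 and 24 h. In set 3 Per2 had 1.37, 0.626 and 3.63 FPKM at 0.5, 2 and 6 h. Each set had its lowest value at 2 h, and the 6 h libraries overlapped the unirradiated ones. Per2 fell at 2 h by 1.24 ± 0.22 (limma adjusted p = 0.0204) and rose from 2 to 6 h by 1.20 ± 0.19 (adjusted p = 0.0184). The difference from unirradiated skin at 6 h was -0.033 and turned to 0.015 with a pseudocount of 0.1, to 0.023 with median-of-ratios scaling and to 0.089 with quantile normalization, none past the test. At 0.5 h it was -0.99 (adjusted p = 0.226), at 12 h -0.40 (adjusted p = 0.405) and at 24 h -0.50 (adjusted p = 0.418). Its mean FPKM was near the bottom of the table, at the 0.929th percentile.

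Per1, the period gene that answers fastest to outside signals, had no change that passed the test (gene at chromosome 11, 69095217 to 69109960). In set 1 Per1 had 31.7 FPKM at 0 h and 23.8, 39.3, 19.5, 22.4 and 11.3 FPKM at the later times. In set 2 Per1 had 15.4 FPKM at 0 h and 28.8, 24.3, 15.2 and 10.3 FPKM at 2, 6, 12 and 24 h. In set 3 Per1 had 13.8, 36.6 and 32.3 FPKM at 0.5, 2 and 6 h. The 2 h library was the highest of every set and the 24 h library the lowest of sets 1 and 2, but the unirradiated pair itself lay far apart, at 15.4 and 31.7 FPKM. Its change was 0.59 ± 0.28 at 2 h (limma adjusted p = 0.247) and -0.97 ± 0.29 at 24 h (adjusted p = 0.150), and from 0.5 to 2 h it was 1.01 ± 0.27 (adjusted p = 0.647), a step at which 0 of all 10980 genes were called and 817 had an unadjusted p under 0.05, or 98 with the set left out. At 6 and 12 h Per1 was at 0.13 and -0.25, and these signs turned when single libraries were left out.

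Nr1d1 and Nr1d2, which encode REV-ERB alpha and REV-ERB beta, the heme-binding repressors of the Arntl loop, had their lowest value of each set at 0.5 or 12 h. In set 1 Nr1d2 (chromosome 14, 18204054 to 18239127) had 14.8 FPKM at 0 h and 4.44, 5.66, 11.1, 4.89 and 8.75 FPKM at the later times. In set 2 Nr1d2 had 19.0 FPKM at 0 h and 11.9, 16.0, 7.11 and 9.83 FPKM at 2, 6, 12 and 24 h. In set 3 Nr1d2 had 2.63, 3.11 and 6.84 FPKM at 0.5, 2 and 6 h. Of the irradiated libraries 11 were below both unirradiated ones, the exception being 6 h in set 2, and 6 h was the highest irradiated time of every set. Nr1d2 fell by 1.39 ± 0.19 at 0.5 h (limma adjusted p = 0.0303), by 1.003 ± 0.17 at 2 h (adjusted p = 0.0175), by 1.36 ± 0.18 at 12 h (adjusted p = 0.00368) and by 0.79 ± 0.18 at 24 h (adjusted p = 0.0499). At 6 h it was at -0.27 (adjusted p = 0.373). The fall at 12 h was called in all 14 fits that left out 1 library, with values from -1.46 to -1.26, and that at 24 h in 4, with values from -1.0007 to -0.58.

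In set 1 Nr1d1 (chromosome 11, 98767932 to 98775333) had 32.7 FPKM at 0 h and 11.5, 16.1, 29.2, 11.6 and 16.8 FPKM at the later times. In set 2 Nr1d1 had 30.1 FPKM at 0 h and 20.1, 19.4, 14.5 and 18.4 FPKM at 2, 6, 12 and 24 h. In set 3 Nr1d1 had 29.4, 33.0 and 33.5 FPKM at 0.5, 2 and 6 h. Set 3 therefore stood at the level of the unirradiated libraries of the other sets, with 2 of its libraries above both and 10 of 12 irradiated libraries below both. Nr1d1 fell at 12 h by 1.21 ± 0.22 (limma adjusted p = 0.0161). At the other times the change was -1.13 at 0.5 h (adjusted p = 0.147), -0.76 at 2 h (adjusted p = 0.0798), -0.50 at 6 h (adjusted p = 0.203) and -0.80 at 24 h (adjusted p = 0.120). The gene shares 263 exonic bases with Thra, a thyroid hormone receptor gene on the opposite strand. No source used here says whether the libraries kept strand, so reads of the pair cannot be told apart there, and Thra itself passed the test at none of the 5 times, with changes from -0.19 to 0.088.

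Dbp, an activator whose level follows the clock closely in many tissues, had the largest log2 changes of the 9 members (gene at chromosome 7, 45705088 to 45710203). In set 1 Dbp had 18.2 FPKM at 0 h and 2.18, 1.04, 6.88, 2.76 and 6.75 FPKM at the later times. In set 2 Dbp had 19.5 FPKM at 0 h and 4.11, 5.42, 4.40 and 3.47 FPKM at 2, 6, 12 and 24 h. In set 3 Dbp had 10.7, 15.2 and 10.6 FPKM at 0.5, 2 and 6 h. All 12 irradiated libraries were below both unirradiated ones, as for 3.4% of genes, but set 3 was far above sets 1 and 2 at the same times and had no dip at 2 h. Dbp fell by 2.38 ± 0.45 at 2 h (limma adjusted p = 0.0275) and by 2.14 ± 0.47 at 12 h (adjusted p = 0.0337). The change was -2.45 ± 0.51 at 0.5 h (adjusted p = 0.139), -1.78 at 6 h (adjusted p = 0.0526) and -1.76 at 24 h (adjusted p = 0.105), none of which passed. Without the set term the changes at 0.5, 2 and 6 h were smaller, at -1.70, -1.84 and -1.24. Dbp shares 539 exonic bases with Sphk2, a sphingosine kinase gene on the opposite strand. Sphk2 had changes between -0.52 and -0.14 and fell at 6 h, by 0.52 (adjusted p = 0.0329).

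Tef, the other PAR-type activator, also fell at 2 and 12 h (gene at chromosome 15, 81802421 to 81826863). In set 1 Tef had 39.7 FPKM at 0 h and 13.3, 15.1, 32.6, 18.9 and 22.2 FPKM at the later times. In set 2 Tef had 31.7 FPKM at 0 h and 18.4, 26.0, 19.3 and 18.9 FPKM at 2, 6, 12 and 24 h. In set 3 Tef had 26.4, 26.3 and 36.7 FPKM at 0.5, 2 and 6 h. In each set the 6 h library was the highest after irradiation, and 10 of 12 irradiated libraries were below both unirradiated ones. Tef fell by 1.04 ± 0.17 at 2 h (limma adjusted p = 0.0168) and by 0.86 ± 0.18 at 12 h (adjusted p = 0.0277). At 0.5, 6 and 24 h it was at -1.21 (adjusted p = 0.0617), -0.37 (adjusted p = 0.231) and -0.77 (adjusted p = 0.0617). Of its 7867 exonic bases Tef shares 193 with the antisense gene Gm17597, which is not in the table.

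Nfil3, the repressor of D-box genes, was the only member that rose against unirradiated skin in this fit (gene at chromosome 13, 52967209 to 52981073). In set 1 Nfil3 had 30.6 FPKM at 0 h and 42.2, 40.2, 47.1, 45.0 and 36.0 FPKM at the later times. In set 2 Nfil3 had 25.8 FPKM at 0 h and 32.3, 44.5, 37.5 and 35.2 FPKM at 2, 6, 12 and 24 h. In set 3 Nfil3 had 34.0, 43.7 and 53.1 FPKM at 0.5, 2 and 6 h. All 12 irradiated libraries were above both unirradiated ones, which 0.592% of all genes had, and each set peaked at 6 h. Nfil3 rose at 6 h by 0.71 ± 0.13 (limma adjusted p = 0.0184). The change was 0.30 at 0.5 h (adjusted p = 0.516), 0.40 at 2 h (adjusted p = 0.109), 0.53 at 12 h (adjusted p = 0.0536) and 0.33 at 24 h (adjusted p = 0.337).

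**Figure D2:**
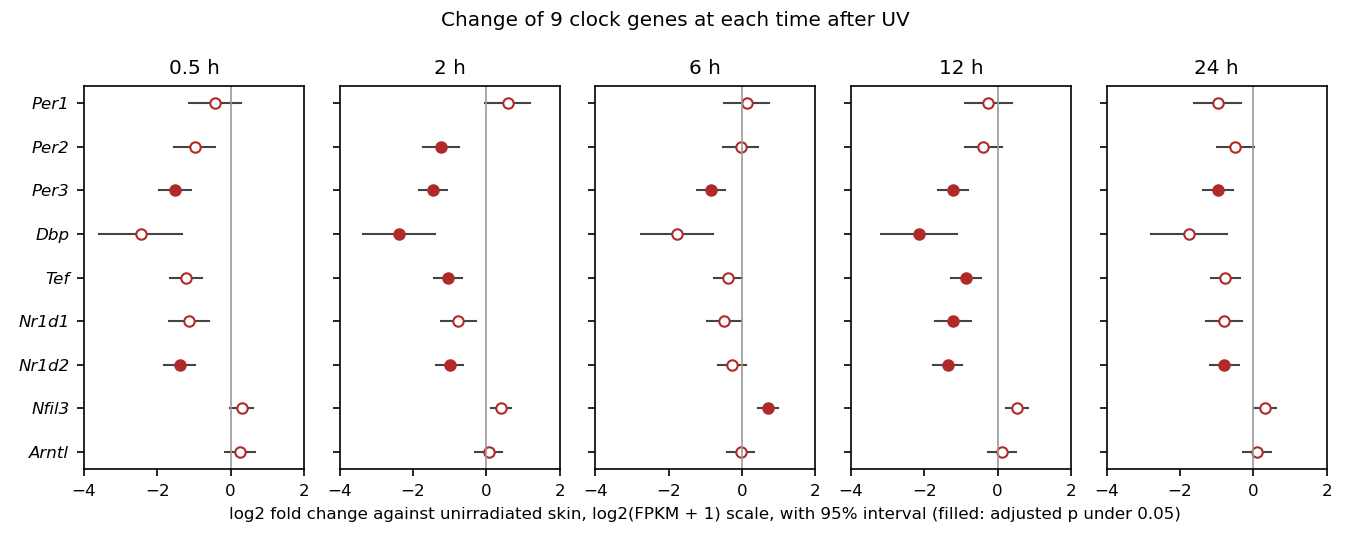
Log2 change in FPKM + 1 against unirradiated skin at 5 times after UV for the 9 clock genes, from the limma fit with library set; points are estimates, bars are 95% confidence intervals and filled points have an adjusted p under 0.05. Per3 is filled at all 5 times, Nr1d2 at 4, Nfil3 at 6 h alone on the positive side, and Per1 and Arntl at none.

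The ratio of Nfil3 to its D-box counterparts was computed within each library, which cancels any factor common to the library. The level of Nfil3 was 0.770 and 0.814 times that of Tef in the unirradiated libraries of sets 1 and 2, on the FPKM scale, which is per length. In the 12 irradiated libraries it was 1.29 to 3.18 times that of Tef. The ratio to Dbp was 1.68 and 1.32 without irradiation and 2.87 to 38.6 after it. The highest ratios to both were those of set 1 at 0.5 and 2 h, and the lowest irradiated ratios were in set 3, at 0.5 h for Tef and at 2 h for Dbp. These ratios follow from the same values as the changes above and carry no test of their own. For Dbp the separation had to occur, since Nfil3 was above and Dbp below both unirradiated libraries in all 12 irradiated ones. The share of all gene pairs with such a separation was not computed.

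**Figure D3:**
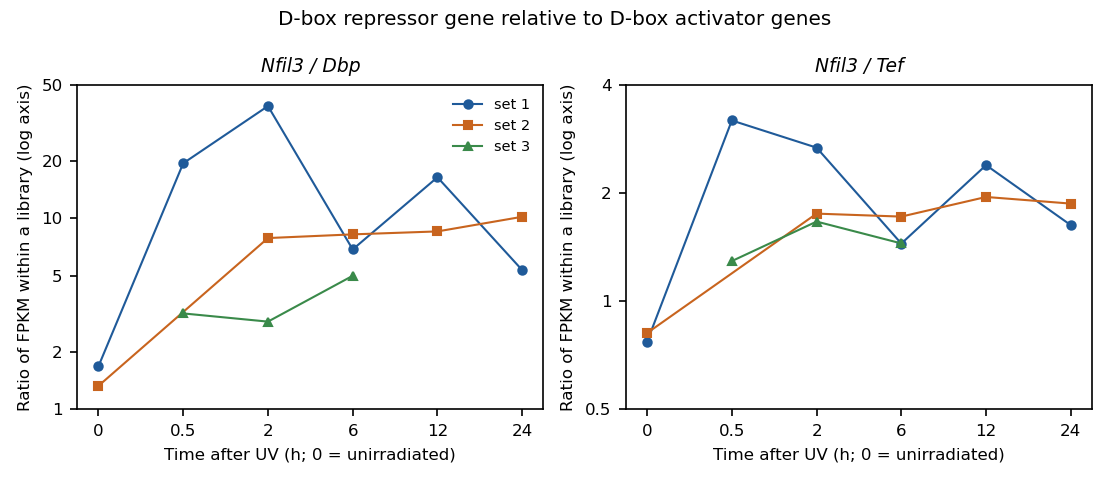
Ratio of Nfil3 FPKM to Tef FPKM and to Dbp FPKM in each library (log axis) by hours after UV, with 1 colour per library set. The 0 h libraries are at 0.770 and 0.814 for Tef and at 1.68 and 1.32 for Dbp, and every irradiated library lies above them. For Dbp this follows from the separation of each gene alone.

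Arntl, the activator at the head of the loop, had no change that passed the test (gene at chromosome 7, 113207465 to 113314126). In set 1 Arntl had 9.78 FPKM at 0 h and 10.2, 9.29, 7.41, 8.71 and 7.96 FPKM at the later times. In set 2 Arntl had 7.04 FPKM at 0 h and 9.16, 7.82, 9.38 and 10.1 FPKM at 2, 6, 12 and 24 h. In set 3 Arntl had 7.51, 5.76 and 6.71 FPKM at 0.5, 2 and 6 h. Of the 12 irradiated libraries 8 lay between the unirradiated ones, 2 below both and 2 above both. The changes were 0.26, 0.065, -0.036, 0.11 and 0.099 at 0.5, 2, 6, 12 and 24 h, with standard errors of 0.16 to 0.19, and all but the first changed sign under another scaling, without the set term or when 1 library was left out. The 95% interval was -0.15 to 0.68 at 0.5 h and -0.28 to 0.48 at 24 h, and so does not show that Arntl stayed level. The 33 exonic bases it shares with the antisense gene Gm45355 are a small part of its 7523.

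Between neighbouring times the calls among members were upward from 2 to 6 h and downward from 6 to 12 h. From 2 to 6 h 3 of 9 members rose, against 1.43% of all genes, namely Per2 as given above, Tef by 0.67 ± 0.15 (limma adjusted p = 0.0482) and Nr1d2 by 0.73 ± 0.14 (adjusted p = 0.0348). From 6 to 12 h Nr1d2 fell by 1.09 ± 0.17 (adjusted p = 0.0269), 1 of 9 members against 0.228% of all genes. From 0.5 to 2 h and from 12 to 24 h limma called 0 members and 0.0% of all genes, with 2 members at an unadjusted p under 0.05 at each step and, with the set left out, 1 and 0. Within set 1 the 6 h library was above both the 2 h and the 12 h library for 6 of 9 members, against 40.2% of all genes, and within set 2 for 6 of 9 against 29.0%. In both sets this held for 5 of 9, Per3, Dbp, Tef, Nr1d2 and Nfil3, against 17.3% of genes. The upward step was called for none of the members when set 3, the set 1 library at 2 h or the set 2 library at 6 h was left out, or the set 3 library at 2 h alone. It was called for 1 without either unirradiated library, either 0.5 h library, either 12 h library or the set 3 library at 6 h. The rise of Tef was called in 1 and that of Nr1d2 in 4 of the 14 fits made with a library omitted, with values from 0.53 to 0.82 and from 0.62 to 0.93. The call for Nr1d2 from 6 to 12 h was lost without either 12 h library or without the 6 h library of either set 1 or set 2.

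The other genes of the clock machinery did not pass the test. Of 19 listed partners and regulators of the loop 13 were in the table. At each of the 5 times limma called 0 of them, where 0.1%, 2.79%, 4.32%, 3.81% and 2.19% of all genes were called. For 13 genes, 0 calls is near those shares. An unadjusted p under 0.05 was seen for 4, 5, 5, 3 and 5 of the 13, and for 1111, 2372, 2414, 1992 and 1334 of all 10980 genes. With the set left out 0 of the 13 were called, and 2, 2, 2, 0 and 2 had an unadjusted p under 0.05. In that fit 333, 660, 615, 494 and 352 of all genes did. Npas2, which can stand in for CLOCK, was among the listed genes that are not in the table, so it has no values here. Clock, the partner of BMAL1, had 3.50 and 4.68 FPKM at 0 h and 0.647 to 4.30 FPKM after irradiation, with changes of -0.30, -0.46, -0.52, -0.43 and -0.021 at the 5 times. Cry1, a cryptochrome and the strongest repressor of the loop, had 9.23 and 5.86 FPKM at 0 h and changes of -0.088, -0.12, 0.48, 0.39 and 0.15. Cry2, its relative, had 11.8 and 7.89 FPKM at 0 h and changes of -0.57, -0.31, -0.018, -0.19 and -0.35. The lowest adjusted p among these 3 genes was 0.133, for Cry1 at 6 h. Rora, an activator at ROR elements, was chosen after its values were seen, because all 12 of its irradiated libraries, at 1.79 to 9.16 FPKM, were below both unirradiated ones at 13.3 and 11.3 FPKM, as for 3.4% of all genes. Its changes were -0.81, -0.87, -0.75, -0.94 and -0.76, and the lowest adjusted p was 0.0669, at 12 h.

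**Figure D4:**
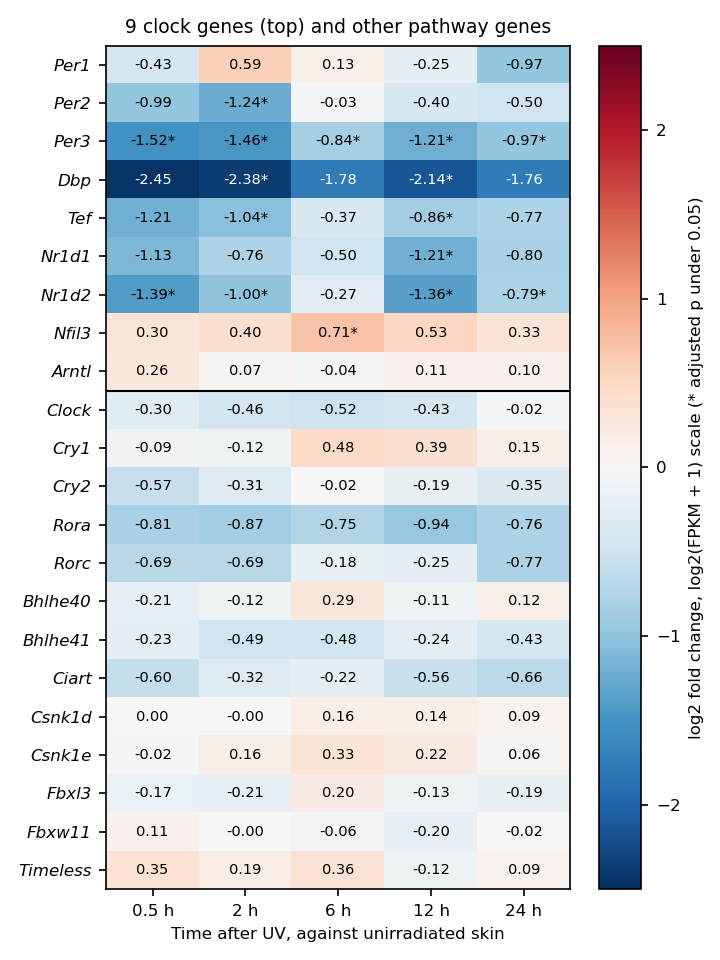
Heat map of the log2 change in FPKM + 1 against unirradiated skin, with the 9 clock genes above the line and the 13 measured genes of the clock pathway list below it in rows, and 5 times after UV in columns; colour and number give the limma estimate with library set, and an asterisk marks an adjusted p under 0.05. The asterisks lie among the 9 genes, at all 5 times for Per3, and none lies below the line.

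Among genes downstream of the clock 3 passed the test at some time, and Klf9, described below, passed only the F test over all times. That F test called 1 of 14 measured outputs, against 4.92% of all genes. Of 15 listed outputs 14 were measured, and 0, 2, 0, 2 and 0 passed at 0.5, 2, 6, 12 and 24 h, where 0.1%, 2.79%, 4.32%, 3.81% and 2.19% of all genes passed in either direction. Wee1, a kinase that holds back mitosis and a known E-box target, had 11.6 and 9.47 FPKM at 0 h and 5.87 to 7.98 FPKM in all irradiated libraries. The pattern of all irradiated libraries below both unirradiated ones was had by 3.4% of all genes. Wee1 fell by 0.61 ± 0.14 at 2 h (limma adjusted p = 0.0487) and by 0.69 ± 0.15 at 12 h (adjusted p = 0.0309). Insig2, which restrains sterol synthesis, fell by 0.55 ± 0.13 at 2 h (adjusted p = 0.0481), from 49.96 and 47.5 FPKM to 22.6, 33.9 and 35.2 FPKM. Cdkn1a, which encodes the cell cycle inhibitor p21 and is also a p53 target, rose by 0.81 ± 0.19 at 12 h (adjusted p = 0.0402), from 205 and 169 FPKM to 315 and 339 FPKM. With the set left out, 0 outputs were called at any time, and 1, 2, 3, 2 and 3 had an unadjusted p under 0.05.

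Inputs known to act on Per1 were looked at through their other targets. Of 11 glucocorticoid targets 10 were measured, Per1 among them. None was called by limma against unirradiated skin, where 0.1%, 2.79%, 4.32%, 3.81% and 2.19% of all genes were called at the 5 times. For 10 genes, 0 calls is near those shares. An unadjusted p under 0.05 was seen for 0, 0, 2, 0 and 3 of the 10, and for 1111, 2372, 2414, 1992 and 1334 of all 10980 genes. With the set left out these counts were 0, 0, 1, 0 and 2 of the 10, and 333, 660, 615, 494 and 352 of all genes. Fkbp5, a chaperone of the glucocorticoid receptor and among its targets, had 7.42, 7.25 and 8.04 FPKM at 2 h and 13.1, 19.6 and 20.2 FPKM at 6 h. This was a rise of 1.10 ± 0.21 (limma adjusted p = 0.0317), for 1 of 10 targets, against 1.43% of all genes. Fkbp5 and Klf9, a glucocorticoid-induced factor that is also a clock output, passed the F test over all times (adjusted p = 0.0480 and 0.0481). They were 2 of 10 targets, against 4.92% of all genes. Of 12 genes of the CREB and serum response 11 were measured, again with Per1. At 2 h 3 of 11 rose, against 0.228% of all genes, Junb by 1.003 ± 0.22 (adjusted p = 0.0416), Ier2 by 1.01 ± 0.18 (adjusted p = 0.0255) and Arc by 0.99 ± 0.21 (adjusted p = 0.0394), all immediate early genes, and at 6 h 1 of 11 rose, against 0.902%, Arc by 1.09 ± 0.21 (adjusted p = 0.0258). None passed at 0.5, 12 or 24 h, with 4, 2 and 2 at an unadjusted p under 0.05, or 3, 0 and 1 with the set left out. At 2 h 10 of the 11 estimates were above 0, but the unirradiated libraries of sets 1 and 2 lay far apart. Junb had 192 and 58.8 FPKM there, Ier2 94.2 and 32.7 FPKM and Arc 3.23 and 1.25 FPKM. Fos went from 130 FPKM at 0 h to 87.1 FPKM at 2 h in set 1, and from 4.82 to 27.6 FPKM in set 2. Fosb and Dusp1 were likewise lower at 2 h in set 1 and higher in set 2. The lists share Per1, Klf9, Tsc22d3, Pdk4 and Dusp1 in part, so their counts are not separate. Over all 4 lists the 5 calls at 2 h became 0 without the unirradiated library of set 2, without the 2 h library of either set 1 or set 3, or without the set 2 library at 6 h, became 1 without either 0.5 h or either 12 h library, and were 3 without the set 2 library at 2 h or either 24 h library. At 6 h the 1 call became 0 without the set 2 library at 6 h, 2 without either 12 h library and 3 without the set 2 library at 2 h or the set 3 library at 6 h. At 12 h the 2 calls became 0 without either 12 h library or the set 2 library at 6 h, 1 without the unirradiated one of set 1 or the 2 h one of either set 1 or set 3, and 4 without the set 3 library at 6 h. At 24 h 4 were called without the unirradiated library of set 2 and 1 without the set 2 library at 2 h.

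Genes outside the 9 that were most like a member were found by the root mean square difference of log2(FPKM + 1) over the 14 libraries, each gene centred within its library set, among 10970 genes. Nearest to Dbp were Nnat at 0.51, Ces2g at 0.55 and Podn at 0.55, and nearest to Per3 were Dst at 0.22, Podn at 0.25 and Nnat at 0.25. Nearest to Nr1d1 were Rab43, Sox15 and Man2b2, all at 0.23. The genes nearest to Nfil3 were Zfp653 at 0.10, Accs at 0.11 and Krt25 at 0.12, and those nearest to Arntl were Tpd52 at 0.095, Aasdhppt at 0.10 and Ddx10 at 0.10. When the members themselves were ranked with the rest, the nearest gene of all to Dbp was Per3 at 0.44, to Per3 it was Tef at 0.17 and to Nr1d1 it was Tef at 0.21. Dbp had Per3, Tef and Nr1d1 among its 7 nearest genes, and Per1 was at rank 10786 of 10978. In reverse Dbp was only at rank 2025 from Per3 and at rank 10378 from Nr1d1. Per2 was at rank 414 from Dbp, 88 from Per3 and 8347 from Nr1d1. Nr1d2 was at rank 12 from Dbp, 5 from Per3 and 28 from Nr1d1. A flat gene is near many others by this measure, which describes these libraries and carries no test.

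Markers of the skin's cell types moved over the same times, at which 0.0911%, 2.56%, 3.42%, 3.23% and 1.87% of all genes fell. The 6 keratinocyte markers summed to 7817 and 4636 FPKM at 0 h and to 3008 to 4512 FPKM at 12 h, and 0, 0, 1, 2 and 2 of 6 fell at the 5 times. The 6 fibroblast markers summed to 1633 and 3994 FPKM at 0 h and to 692 and 1009 FPKM at 12 h, and 1, 3, 2, 4 and 4 of 6 fell. The 5 myeloid markers summed to 107 and 210 FPKM at 0 h and to 50.1 and 78.6 FPKM at 12 h, and 0, 3, 1, 2 and 1 of 5 fell. At 2 and 12 h, the times at which most members fell, the median change was -1.18 and -1.82 for the fibroblast markers and -1.06 and -1.12 for the myeloid ones. The 10 muscle markers summed to 4784 and 2943 FPKM at 0 h and to 5216 to 6793 FPKM at 2 h, and limma called none of them at any time. Of the 7 hair shaft markers 1 rose at 2 h, against 0.228% of all genes, and 1 at 12 h, against 0.574%, and of the 6 adipocyte and 4 endothelial markers none was called. No marker was at 0 in all libraries of a group. In bulk skin fewer cells of a type and less RNA per cell cannot be told apart, and the part of these shifts in the changes of the clock genes was not tested.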

How the data were processed

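The deposited table holds FPKM values, made by the authors with TopHat2 2.1.0 and Cufflinks 2.2.1 on mm10, per the submitters' processing notes; no source used here gives the annotation, the strandedness or the mapping settings. The table's columns carry a time but no replicate number. Library sets were read from digits and header style, and the unirradiated library that this left unclear was placed in set 2 by its mean correlation (0.964, against 0.888 with set 3). The 28 same-set pairs had deviations from the time means correlated at 0.411 or more. The 53 pairs that shared neither set nor time were correlated at 0.492 or less. These ranges overlap, and the unclear unirradiated library was itself placed by correlation, so the correlations alone do not establish the sets. In the sample titles replicate 2 occurs at all 6 times and replicate 1 at 0, 2, 6, 12 and 24 h. Replicate 3 occurs at 0.5, 2 and 6 h, with none at 0 h. These are the times of sets 1, 2 and 3, in that order, though no header ties a column to a title. Whole reads were recovered from the FPKM steps of sets 2 and 3 for all 10954 genes with a value (tolerance 1e-06 reads) and used only to give depth.

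All values were turned into log2(FPKM + 1), which compresses changes of low genes. limma 3.58.1 (R 4.3.3) was fitted to all 10980 genes with time and library set as terms and an intensity trend, leaving 6 residual degrees of freedom; two-sided moderated tests were adjusted by Benjamini-Hochberg at 0.05. The fit was tested on simulated data. Named were all members, each gene of the fixed lists past a test against unirradiated skin (the F test over those 5 contrasts included, which alone names Fkbp5 and Klf9), Clock, Npas2, Cry1 and Cry2, and the 3 nearest genes of 5 members (mean FPKM of at least 1); Rora falls outside this rule. Members, lists and the set term were chosen with earlier results of these data known. Alternatives were no set term, a pseudocount of 0.1, a minimum mean FPKM of 5, other scalings, sets 1 and 2 only, no trend and leaving out each library. Positions are from GENCODE on GRCm38 and promoters from RefSeq.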

Additional observations from a re-analysis of the deposited data

How the results depend on the processing

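The fit without the replicate block (the library set) called 0 members at 0.5, 2, 6, 12 and 24 h against unirradiated skin, 0 from 2 to 6 h and from 6 to 12 h, 0 in the F test and 0 genes of the other lists, in place of 2, 5, 2, 5 and 2, of 3 and 1, of 4, and of 5, 1 and 2 at 2, 6 and 12 h; its median residual SD was 0.335, against 0.155 with the set. A minimum mean FPKM of 5, which removes Per2 and Per3, gave 1, 3, 1 and 0 members at 0.5, 2, 6 and 24 h, 2 in the F test and 1 other gene at 2 h. With sets 1 and 2 only there were 0 members at 0.5 h, 0 from 2 to 6 h, and 0 and 2 other genes at 2 and 6 h. At 24 h a pseudocount of 0.1 and a fit without trend each gave 1 member. At 2 h the other genes called were 3 with a pseudocount of 0.1, 3 with median-of-ratios scaling and 2 with quantile normalization. Leaving out 1 library gave 0 to 4, 0 to 6, 0 to 3, 1 to 6 and 0 to 4 members at the 5 times, 0 to 2 from 2 to 6 h, 0 to 1 from 6 to 12 h and 1 to 7 in the F test, and 0 to 5, 0 to 3, 0 to 4 and 0 to 4 other genes at 2, 6, 12 and 24 h. Of the 20 called changes of members, 20 stayed called with median-of-ratios scaling, 19 with quantile normalization, 18 with a pseudocount of 0.1, 18 without trend, 13 with sets 1 and 2 only and 12 of the 13 testable under the FPKM minimum; none changed direction in any alternative run. Signs turned only for uncalled values: Per1 at 6 h was -0.024 with sets 1 and 2 only and -0.22 to 0.50 with 1 library left out, and at 12 h -0.61 to 0.10; Per2 at 6 h was 0.015 with a pseudocount of 0.1, 0.023 with median-of-ratios scaling, 0.089 with quantile normalization and -0.32 to 0.26 with 1 library left out. Arntl at 2 h was -0.063 without the block and -0.20 to 0.33 with 1 library left out, at 6 h 0.018 with median-of-ratios scaling, 0.072 with quantile normalization and -0.30 to 0.23, at 12 h -0.16 to 0.37 and at 24 h -0.17 to 0.36. The cause of these shifts was not tested, beyond the smaller spread that the set term leaves. The planned comparison of protein sequences was not run. With 58 to 322 reads for Per2 and no depth for set 1, small changes of the weakest members are not detectable here.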
